A study of Mus musculus with 24 samples.

Results

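A set of 10 genes that wild-type p53 switches on to arrest the cell cycle or to meet stress was followed by RNA-seq through male and female mouse astrocytes that lacked p53 or overexpressed a p53 missense mutant. The 10 genes are *Cdkn1a*, *Ccng1*, *Zmat3*, *Phlda3*, *Trp53inp1*, *Btg2*, *Plk2*, *Sesn1*, *Sesn2*, and *Gtse1*. They were chosen by name from the known targets of p53, and all 10 were found by their Ensembl identifier and symbol among the 14427 genes counted. The cells were C57BL/6 primary astrocytes from the cortex of mice on postnatal day 1, with 1 culture of pooled pups for each sex. The pups carried 1 floxed and 1 deleted *Trp53* allele. Every line received a lentivirus for Cre and puromycin resistance that removed the floxed allele, so that no line kept wild-type p53. The p53 KO line of each culture received only that lentivirus. The p53 R172H, p53 Y202C, and p53 Y217C lines had before that received a retrovirus for the mutant p53 and eGFP and had been sorted for eGFP. There were 8 lines with 3 libraries each, 24 in all, and each mutant was compared with the p53 KO line of its own culture.

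Each line is a single transduced culture at passage 10 to 15, and the study describes in vitro replicates in general as separate thaws and platings, which the labels of these libraries do not state. The tests below therefore measure the spread within a line. An effect of the mutation cannot be told apart from the retrovirus, the sort, or the history of the line, and the sex cannot be told apart from the culture. No library of cells with wild-type p53 was analysed here. In bulk RNA, fewer cells that express a gene and less RNA per cell cannot be told apart.

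As background, p53 is a transcription factor that is kept scarce by its own target *Mdm2* and accumulates after DNA damage and other stress. It binds a pair of half-sites near its target genes and raises their transcription. *Cdkn1a* encodes p21, which inhibits cyclin-dependent kinases and holds cells before S phase. Other targets followed here slow division (*Btg2*, *Ccng1*), act at microtubules or centrosomes (*Gtse1*, *Plk2*), or answer metabolic and oxidative stress (*Sesn1*, *Sesn2*). The remaining targets act on RNA, Akt signaling, and autophagy (*Zmat3*, *Phlda3*, *Trp53inp1*). The 3 mutations lie in the DNA-binding domain, where missense mutations commonly remove the ability to activate these targets. Several of the genes also answer to other regulators, such as ATF4 for *Sesn2* and growth factor signaling for *Btg2*.

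*Trp53* itself followed the labels. Its mean level was 50.9 CPM (counts scaled to the TMM-normalized size of the library) in male p53 KO and 48.9 CPM in female p53 KO. In the mutant lines it ran from 593 CPM in female p53 Y202C to 3709 CPM in female p53 Y217C, and in males from 1215 CPM in p53 Y217C to 2324 CPM in p53 Y202C. These reads can come from the retroviral copy as well as from the deleted locus. Total counts were 52787288 to 136503809 per library, and no library held fewer than 239 counts of any of the 10 genes. Of 10 astrocyte markers, *Sox9* was at 79.96 CPM or more in every line, *Slc1a3* ran from 3.14 to 281 CPM, and *Aldh1l1* was above 1 CPM in male p53 Y202C, male p53 Y217C, and female p53 R172H alone. *Gfap* was at or below 0.257 CPM in all lines except male p53 Y217C, at 6.93 CPM. There 8 of the 10 markers were higher than in p53 KO and 2 did not pass, beside 34.9% of all genes higher. In male p53 R172H 0 were higher and 6 lower (20.2% and 20.5% of all genes), and in male p53 Y202C 3 and 7 (37.6% and 35.4%). Female p53 R172H had 4 and 2 (34.4% and 35.3%), p53 Y202C 4 and 1 (34.3% and 34.3%), and p53 Y217C 1 and 4 (28% and 28.7%). Per library the 10 astrocyte markers summed to 227 to 685 CPM, and 6 fibroblast markers, led by *Col1a1*, to 8691 to 48670 CPM. The fibroblast sum was lowest in male p53 Y202C and highest in female p53 R172H. The part of either marker list in the results below was not tested.

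The promoters of the genes were read first, because the lines differ in the protein that would bind them. RefSeq start sites on GRCm38.p6 gave 11 windows of 300 bases, from 250 bases before to 50 bases after the start, for 8 of the 10 genes. *Zmat3* and *Trp53inp1* had no entry. A p53 half-site, searched on both strands with every consensus position matched, was found in 4 windows, of *Cdkn1a*, *Ccng1*, *Sesn1*, and *Gtse1*, and in 8.36% of all 32851 windows of this length. These 4 windows are shown because they hold the letters that p53 reads. The half-site is in capitals, and the sequence runs 5′ to 3′ along the strand of the gene.
Cdkn1a, chr17:29090729-29091028, plus strand: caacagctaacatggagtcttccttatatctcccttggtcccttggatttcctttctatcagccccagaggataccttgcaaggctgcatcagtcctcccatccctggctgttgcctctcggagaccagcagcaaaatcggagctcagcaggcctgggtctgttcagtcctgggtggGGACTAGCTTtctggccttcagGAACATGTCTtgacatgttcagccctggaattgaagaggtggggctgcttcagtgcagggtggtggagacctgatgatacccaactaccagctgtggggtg
Ccng1, chr11:40755237-40755536, minus strand: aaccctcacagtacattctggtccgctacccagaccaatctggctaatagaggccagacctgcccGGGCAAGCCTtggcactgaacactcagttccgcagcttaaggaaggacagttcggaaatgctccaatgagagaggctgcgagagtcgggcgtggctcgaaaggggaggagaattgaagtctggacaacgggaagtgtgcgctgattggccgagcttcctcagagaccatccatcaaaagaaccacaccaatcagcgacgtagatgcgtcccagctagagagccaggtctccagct
Sesn1, chr10:41887189-41887488, plus strand: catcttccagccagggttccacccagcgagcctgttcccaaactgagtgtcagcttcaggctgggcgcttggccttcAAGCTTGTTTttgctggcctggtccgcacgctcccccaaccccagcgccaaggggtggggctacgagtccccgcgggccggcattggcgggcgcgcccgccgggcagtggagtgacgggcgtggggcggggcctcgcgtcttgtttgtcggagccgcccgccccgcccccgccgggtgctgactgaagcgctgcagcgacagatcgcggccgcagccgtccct
Gtse1, chr15:85859696-85859995, plus strand: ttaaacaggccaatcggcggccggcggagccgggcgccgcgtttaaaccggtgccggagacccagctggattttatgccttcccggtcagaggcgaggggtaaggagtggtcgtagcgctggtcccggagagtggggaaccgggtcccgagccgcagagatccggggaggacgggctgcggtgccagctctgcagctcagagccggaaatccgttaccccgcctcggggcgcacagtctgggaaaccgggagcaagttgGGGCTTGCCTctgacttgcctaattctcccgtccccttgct

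In the first *Cdkn1a* window 2 half-sites began at positions -73 and -51 relative to the start of that window. The second *Cdkn1a* window, of another start site at chr17:29093519-29093818, held no half-site. The half-site of *Ccng1* began at position -185, that of the second *Sesn1* window at position -173, and that of the second *Gtse1* window at position 10, inside the transcript. The cAMP response element TGACGTCA was in the windows of *Btg2* at position -166 and of *Plk2* at position -62, and in 1.79% of all windows. CCAAT, on either strand, was in windows of *Btg2*, *Ccng1*, *Gtse1*, *Sesn1*, and *Sesn2* and in 37.4% of all windows. TTTGAA or TTTAAA, the core of the cell cycle homology region, was in windows of *Gtse1* and *Plk2* and in 27.6% of all. The CArG box of serum response factor was in 1.63% of all windows and TATAAA in 13.6%, and neither was in any of the 11. A match describes the letters only, and the half-sites that p53 uses in several of these genes can lie outside such a window.

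Over the 60 values, 10 genes in 6 mutant lines, 27 were higher than in p53 KO, 15 were lower, and 18 did not pass an adjusted p of 0.05 in edgeR's quasi-likelihood test. In 5 of the 6 lines some of the 10 were higher and others lower. In male p53 R172H 4 were higher, 6 did not pass, and none was lower. There 7 were higher and 0 lower at an unadjusted p of 0.05 in edgeR, and DESeq2 and limma also called 0 lower. *Trp53inp1* was the only one of the 10 that was higher in all 6 mutant lines, a pattern that 2.54% of all genes shared. *Gtse1* was lower in 4 lines and higher in none. Of the 10, 6 (*Cdkn1a*, *Ccng1*, *Zmat3*, *Phlda3*, *Plk2*, and *Sesn1*) were higher in at least 1 mutant line and lower in at least 1 other, and 48.7% of all genes were.

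**Figure D1:**
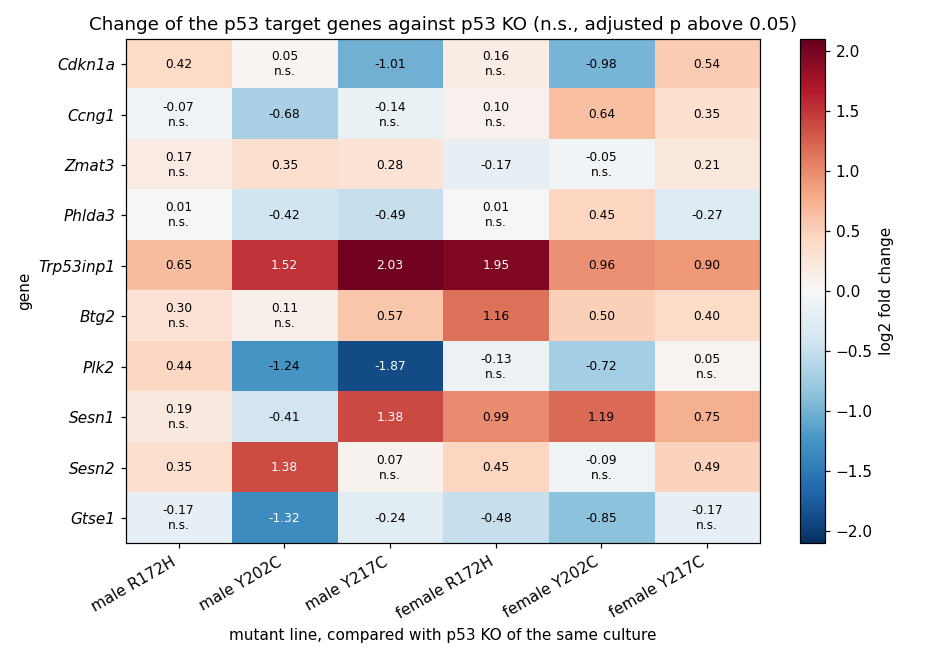
Log2 fold change of each gene (rows) in each mutant line against p53 KO of the same culture (columns), with red for higher and blue for lower and n.s. for an adjusted p above 0.05. The Trp53inp1 row is red throughout, from 0.65 to 2.03, and the Gtse1 row has no value above 0.

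The share of the 10 genes that changed lay near the share of all genes in most lines. In male p53 R172H 4 of 10 passed the threshold, beside 40.7% of all genes (20.2% higher and 20.5% lower), and the median log2 fold change of the 10 was 0.25 against 0.01 for all genes. In male p53 Y202C 3 were higher and 5 lower, beside 73.0% of all genes (37.6% higher and 35.4% lower). Male p53 Y217C had 4 higher and 4 lower, beside 70.5% (34.9% and 35.6%). The male lines with Y202C and Y217C thus changed most genes of the table as well as most of the 10. Female p53 R172H had 4 higher and 2 lower, beside 69.7% (34.4% and 35.3%). Female p53 Y202C had 5 higher and 3 lower, beside 68.6% (34.3% and 34.3%). Female p53 Y217C had 7 higher and 1 lower, beside 56.7% (28% and 28.7%), and its median log2 fold change over the 10 was 0.38 against 0.00 for all genes. The 3 mutant lines of a culture share the same p53 KO libraries.

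**Figure D2:**
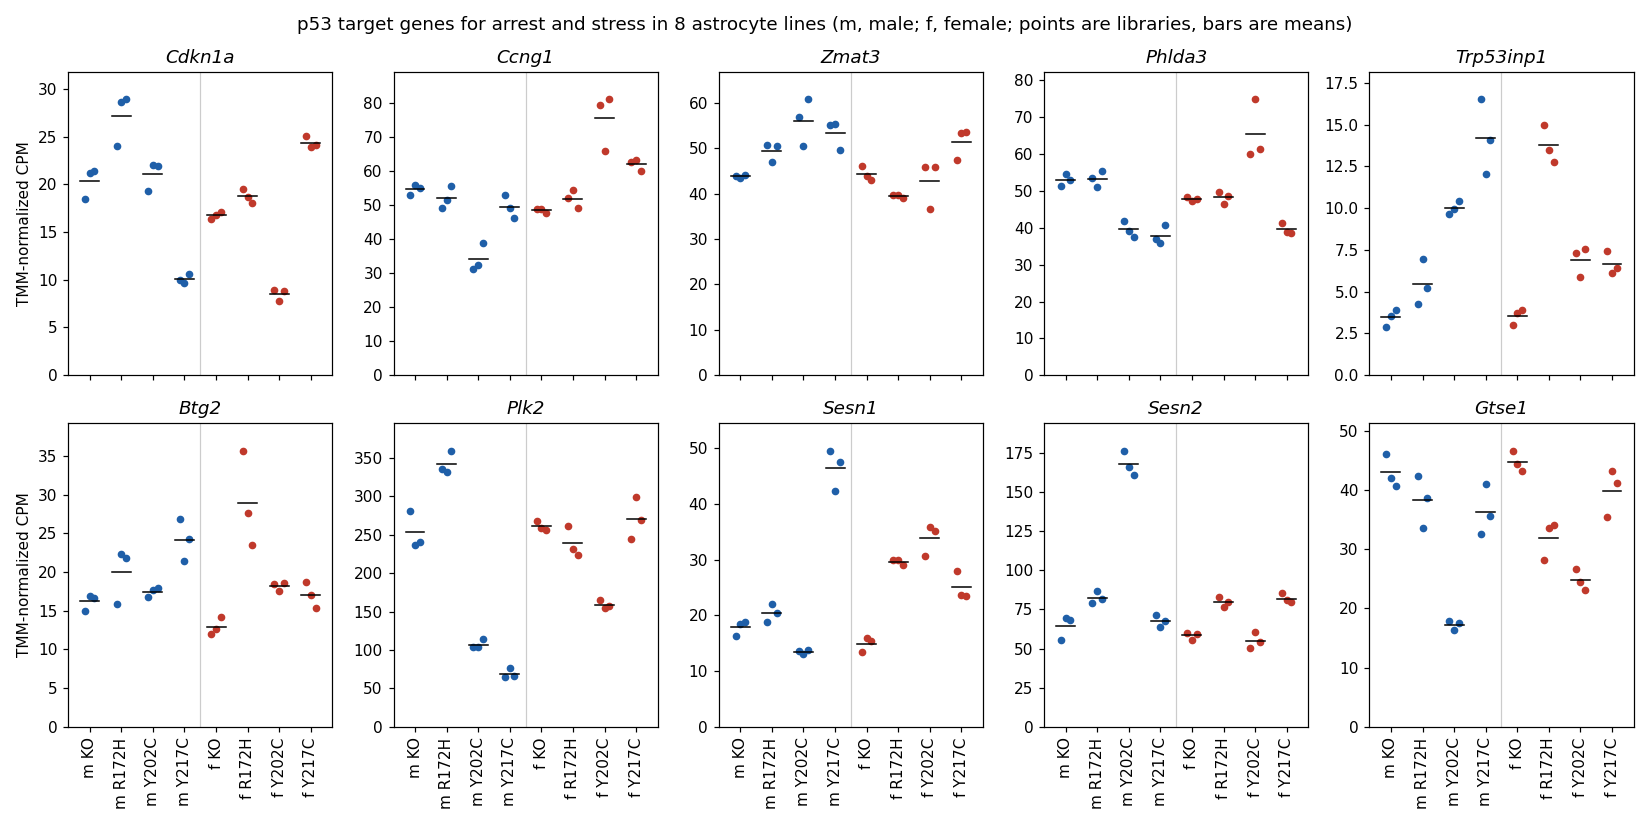
TMM-normalized CPM of the 10 genes in each of the 24 libraries (points) with the mean of each line (bars), males in blue on the left and females in red on the right of each panel. As a ratio of the highest to the lowest line mean, Plk2 spans most (69.03 to 342 CPM) and Zmat3 least (39.5 to 56.1 CPM).

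*Cdkn1a*, the inhibitor of cyclin-dependent kinases, was higher than in p53 KO in some mutant lines and lower in others. Under p53 Y217C it was lower in the male and higher in the female line. In males its libraries read 18.5, 21.1, and 21.4 CPM in p53 KO, 24.1, 28.6, and 28.9 CPM in p53 R172H, 19.3, 22.0, and 21.9 CPM in p53 Y202C, and 9.99, 9.68, and 10.7 CPM in p53 Y217C. All p53 Y217C libraries lay below all others of the male culture, and the p53 R172H libraries lay above those of p53 KO. In females the libraries read 16.4, 16.8, and 17.1 CPM in p53 KO, 19.6, 18.6, and 18.0 CPM in p53 R172H, 8.96, 7.73, and 8.80 CPM in p53 Y202C, and 25.1, 23.9, and 24.1 CPM in p53 Y217C. Here p53 Y202C was the low line and p53 Y217C the high one, with no overlap with p53 KO. The log2 fold change against p53 KO was 0.42 ± 0.08 (SE) in male p53 R172H (adjusted p = 0.000127, edgeR), -1.01 ± 0.08 in male p53 Y217C (4.79e-11), and, in females, -0.98 ± 0.08 for p53 Y202C (1.97e-10) and 0.54 ± 0.08 for p53 Y217C (2.47e-06). In male p53 Y202C it was 0.05 ± 0.08 (adjusted p = 0.58) and in female p53 R172H 0.16 ± 0.08 (0.0664), and the latter passed with 5 of the alternatives tried, among them DESeq2 (0.0368). Ordered by mean, male p53 R172H (27.2 CPM) and female p53 Y217C (24.4 CPM) did not differ (adjusted p = 0.102), nor did neighbours among male p53 Y202C, male p53 KO, female p53 R172H, and female p53 KO, which came next, while male p53 Y217C and female p53 Y202C followed well below at 10.1 and 8.49 CPM and differed from each other (adjusted p = 0.00982).

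The other 6 inhibitors of cyclin-dependent kinases were divided in the lines with low *Cdkn1a*. In male p53 Y217C 4 of the 6 were higher and 2 lower, while 34.9% of all genes were higher and 35.6% lower, and in female p53 Y202C 2 were higher and 4 lower, while 34.3% were higher and 34.3% lower. *Cdkn1c*, which encodes p57, changed in the same direction as *Cdkn1a* in each of the 4 lines where *Cdkn1a* passed. It rose by a log2 fold change of 0.40 in male p53 R172H (adjusted p = 0.0115, lost without replicate 1 of male p53 KO or replicate 2 of male p53 R172H, at 0.29 and 0.31), fell by 3.46 in male p53 Y217C (2.19e-16) and by 4.50 in female p53 Y202C (1.3e-17), and rose by 1.20 in female p53 Y217C (1.41e-08). It was also lower in the lines where *Cdkn1a* did not pass, at -1.63 in male p53 Y202C (4.15e-11) and -2.69 in female p53 R172H (7.55e-15). *Cdkn2a* fell in both lines with low *Cdkn1a*, by 0.55 in male p53 Y217C (0.000121) and by 0.62 in female p53 Y202C (3.25e-05). It also fell in male p53 Y202C (-0.56, 8.9e-05), where *Cdkn1a* did not pass. *Cdkn1b*, which encodes p27, rose in both low lines, by 0.73 (7.99e-08) and 0.91 (3.03e-09). This rise was not particular to them. *Cdkn1b* was also higher in male p53 R172H (0.30, 0.00881), female p53 R172H (0.62, 1.22e-06), and female p53 Y217C (0.64, 1.42e-06). In male p53 Y202C it was lower (-0.28, 0.00673).

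*Cdkn1a* was also the gene of the 10 whose level in the mutant lines went most closely with that of *Trp53*, a relation looked at after the values had been seen. The lines with least *Trp53*, female p53 Y202C (593 CPM) and male p53 Y217C (1215 CPM), had the lowest *Cdkn1a*, and the others, with 1956 CPM of *Trp53* or more, had 18.7 CPM of *Cdkn1a* or more. Over the 6 mutant line means of log2 CPM, Pearson's r was 0.919 and Spearman's rho 0.829. Of all genes, 0.284% reached that r. The points share their culture and, within a culture, their origin, so the value is a description of 6 lines. The p53 KO lines, with the least *Trp53* of all, did not have low *Cdkn1a* (20.4 CPM in males and 16.8 CPM in females). *Sesn2* had the same rho of 0.829 with an r of 0.587, *Sesn1* an r of -0.560, and the other 7 genes an r between -0.608 and 0.435.

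**Figure D3:**
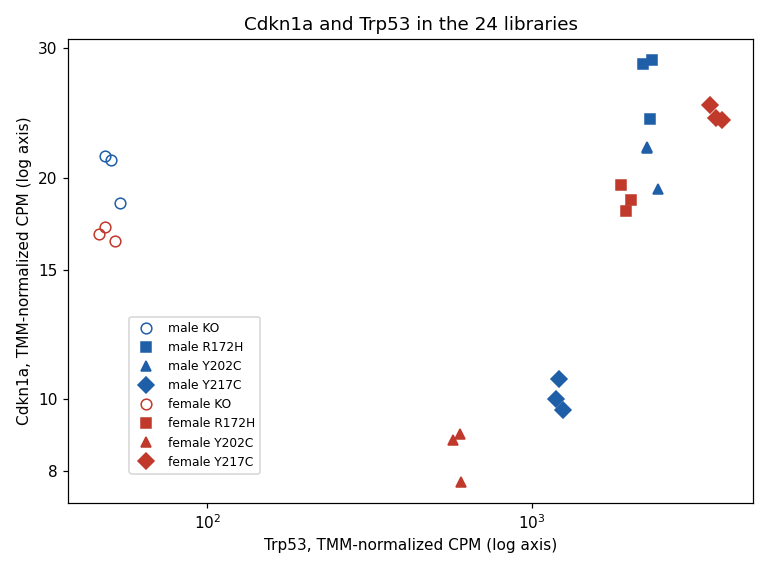
Cdkn1a against Trp53 in the 24 libraries, both in TMM-normalized CPM on log axes, with a symbol for each genotype and a color for each sex. Female p53 Y202C and male p53 Y217C form the low pair, and the p53 KO libraries (open circles) sit at the left with Cdkn1a at 16.4 to 21.4 CPM.

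*Btg2*, an antiproliferative factor that recruits the deadenylase complex to mRNA, was higher in 4 of the 6 mutant lines and lower in none. Female libraries read 11.98, 12.6, and 14.2 CPM in p53 KO and 35.6, 27.6, and 23.5 CPM in p53 R172H, a log2 fold change of 1.16 ± 0.13 (adjusted p = 2.09e-08). Replicates of that line were spread by 6.18 CPM (SD), more than in any other line, and still did not overlap p53 KO. Smaller rises were measured in male p53 Y217C (0.57 ± 0.13, adjusted p = 0.000298), female p53 Y202C (0.50 ± 0.13, 0.00161), and female p53 Y217C (0.40 ± 0.13, 0.0106). The call in female p53 Y217C was lost without replicate 1 of female p53 KO (0.35, adjusted p = 0.0509) or without replicate 1 of female p53 Y217C (0.33, 0.0578). In male p53 R172H the value was 0.30 ± 0.13 (adjusted p = 0.063), which passed with limma voomWithQualityWeights (0.29, 0.0254) and without replicate 1 of that line (0.44, 0.00671), whose 15.9 CPM lay within p53 KO. No pair of neighbours in the order of the 8 lines differed for *Btg2*.

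*Ccng1* encodes cyclin G1, which joins protein phosphatase 2A and *Mdm2* in a loop back to p53. Its highest and lowest lines carried the same mutation. Libraries of p53 Y202C read 31.2, 32.5, and 38.9 CPM in males and 79.6, 66.0, and 81.0 CPM in females, beside p53 KO at 52.8, 56.0, and 54.9 CPM in males and 48.9, 48.7, and 47.8 CPM in females. Neither group of p53 Y202C libraries overlapped its p53 KO. The log2 fold change was -0.68 ± 0.08 in the male line (adjusted p = 3.63e-08) and 0.64 ± 0.08 in the female line (1.16e-07). Female p53 Y217C was higher as well (0.35 ± 0.08, adjusted p = 0.000433). In both p53 R172H lines and male p53 Y217C values ran from -0.14 to 0.10 and did not pass, but male p53 Y217C passed with limma voomWithQualityWeights (-0.17, adjusted p = 0.00445) and without its replicate 1 (-0.20, 0.0425).

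*Gtse1* encodes a microtubule-binding protein made in S and G2 phase, which moves p53 out of the nucleus late in the cycle. It was at 46.2, 42.1, and 40.8 CPM in male p53 KO and at 46.6, 44.5, and 43.2 CPM in female p53 KO, the 2 highest lines. In male p53 Y202C it read 17.9, 16.4, and 17.5 CPM, a log2 fold change of -1.32 ± 0.10 (adjusted p = 1.16e-11). Female p53 Y202C read 26.7, 24.5, and 23.2 CPM (-0.85 ± 0.10, adjusted p = 3.12e-08), and female p53 R172H read 28.3, 33.6, and 34.1 CPM (-0.48 ± 0.09, 6.84e-05). None of these 3 lines overlapped its p53 KO. In male p53 Y217C the libraries overlapped p53 KO, at 32.6, 41.0, and 35.6 CPM. The value of -0.24 ± 0.09 (adjusted p = 0.0248) there no longer passed with total counts in place of TMM (-0.14, 0.186), nor without replicate 1 of male p53 KO (-0.19, 0.112) or replicate 1 (-0.18, 0.138) or 3 (-0.24, 0.0628) of male p53 Y217C.

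*Gtse1* kept step with genes of G2 and mitosis. Of 18 such genes, 17 were lower in male p53 Y202C, with a median log2 fold change of -1.33 beside 0.01 for all genes, of which 35.4% were lower. In female p53 Y202C 17 of 18 were lower (median -0.57, with 34.3% of all genes lower), in female p53 R172H 16 (median -0.60, 35.3%), in male p53 Y217C 9 (median -0.25, 35.6%), and in male p53 R172H 6 (median -0.16, 20.5%). In these 5 lines 0 were higher, also at an unadjusted p of 0.05 in edgeR and with DESeq2 and limma. In female p53 Y217C 5 were higher and 0 lower in edgeR (6 and 1 at an unadjusted p of 0.05, and 1 lower with DESeq2 and with limma), with 28% of all genes higher, and *Gtse1* was at -0.17 ± 0.09 (adjusted p = 0.136). *Kif20a*, a kinesin of the dividing spindle, fell by a log2 fold change of 1.87 in male p53 Y202C (adjusted p = 3.64e-15). *Mki67*, a marker of cycling cells that is on the list, read 128 CPM in male p53 Y202C beside 341 CPM in male p53 KO. Over the 8 line means, the genes whose log2 CPM was most like that of *Gtse1* were *Rad54l* (r = 0.995), *Cdk1* (r = 0.992), and *Kif2c* (r = 0.992).

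**Figure D4:**
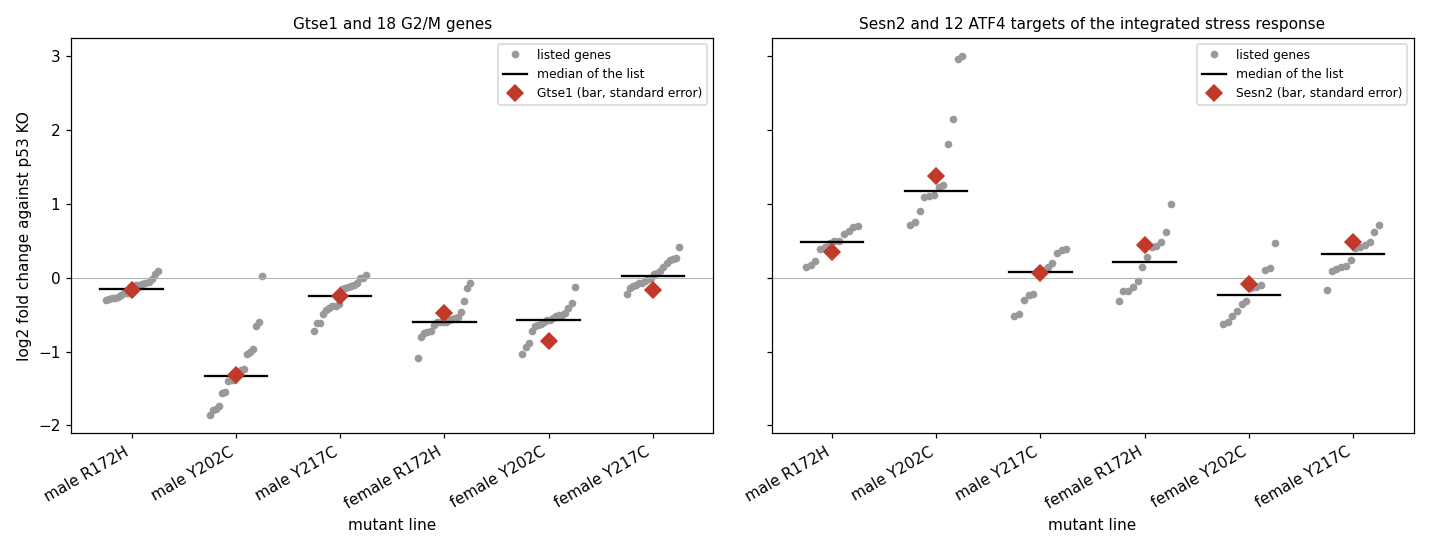
Log2 fold change against p53 KO (vertical axis) in the 6 mutant lines for Gtse1 with 18 genes of G2 and mitosis (left) and for Sesn2 with a list of 12 genes (right). The 12 are Atf4 itself and targets of ATF4. Grey points are listed genes, black bars are medians, and red diamonds with standard errors are Gtse1 and Sesn2. Both lists are farthest from 0 in male p53 Y202C, with medians of -1.33 and 1.18.

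*Sesn2* encodes a sestrin, a leucine sensor that restrains mTORC1 and is induced in amino acid shortage and oxidative stress. Its highest line by far was male p53 Y202C, where libraries read 176, 166, and 161 CPM beside 55.5, 69.7, and 68.4 CPM in male p53 KO. The next line in the order of means, male p53 R172H, read 79.0, 86.7, and 81.4 CPM. The log2 fold change in male p53 Y202C was 1.38 ± 0.07 (adjusted p = 3.42e-14). Smaller rises were measured in male p53 R172H (0.35 ± 0.07, adjusted p = 0.000483), female p53 R172H (0.45 ± 0.07, 7.86e-06), and female p53 Y217C (0.49 ± 0.07, 4.93e-06). In female p53 Y202C libraries overlapped p53 KO (-0.09 ± 0.07, adjusted p = 0.303), and male p53 Y217C (0.07 ± 0.07, 0.412) passed with total counts in place of TMM (0.17, 0.038), where the median of all genes moved by 0.10.

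ATF4, the transcription factor of the integrated stress response, also drives *Sesn2*. A list of 12 genes, *Atf4* itself and targets of ATF4, was counted beside it. All 12 were higher in male p53 Y202C, with a median log2 fold change of 1.18, while 37.6% of all genes were higher. *Ppp1r15a*, the phosphatase subunit that ends that response, rose by 3.01 (adjusted p = 1.25e-19), to 389 CPM. In male p53 R172H 11 of 12 were higher, with 20.2% of all genes higher, led by *Asns*, which makes asparagine (0.70, adjusted p = 5.37e-11). In female p53 Y217C 9 were higher and 0 lower in edgeR (11 and 1 at an unadjusted p of 0.05, 10 and 0 with DESeq2, 11 and 1 with limma), beside 28% of all genes higher and 28.7% lower. In female p53 R172H 7 were higher and 4 lower (34.4% and 35.3% of all genes), in male p53 Y217C 5 and 5 (34.9% and 35.6%), and in female p53 Y202C 1 and 7 (34.3% and 34.3%). *Gadd45a*, a p53 target of the DNA damage response that ATF4 also drives, was the gene most like *Sesn2* over the 8 line means (r = 0.993). It rose from 15.9 to 120 CPM in male p53 Y202C, a log2 fold change of 2.91 ± 0.10 (adjusted p = 1.27e-17). The next most like *Sesn2* were *Angptl6* (r = 0.990) and *Ccdc186* (r = 0.983).

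*Sesn1*, the other sestrin, which responds more to p53 and to FoxO factors, had another order of lines. Male libraries read 16.2, 18.5, and 18.8 CPM in p53 KO, 18.8, 22.0, and 20.5 CPM in p53 R172H, 13.5, 13.1, and 13.8 CPM in p53 Y202C, and 49.5, 42.3, and 47.6 CPM in p53 Y217C. The male p53 Y202C line, highest for *Sesn2*, was the lowest of all 8 for *Sesn1*. Female libraries read 13.4, 16.0, and 15.4 CPM in p53 KO, 29.93, 30.01, and 28.99 CPM in p53 R172H, 30.7, 35.9, and 35.2 CPM in p53 Y202C, and 27.96, 23.6, and 23.5 CPM in p53 Y217C. All 3 female mutants lay above their p53 KO without overlap. The log2 fold change was 1.38 ± 0.08 in male p53 Y217C (adjusted p = 4.77e-13). In females it was 0.99 ± 0.08 for p53 R172H (adjusted p = 3.04e-10), 1.19 ± 0.09 for p53 Y202C (1.8e-11), and 0.75 ± 0.09 for p53 Y217C (9.25e-08). It was -0.41 ± 0.09 in male p53 Y202C (adjusted p = 0.000174) and 0.19 ± 0.08 in male p53 R172H (0.0707), where it passed without replicate 1 of that line (0.25, 0.035). *Sesn3*, the third sestrin, rose most in female p53 R172H (2.32, adjusted p = 8.81e-17) and in male p53 Y217C (1.49, 1.64e-13). It was also higher in female p53 Y202C (1.22, 1.82e-11), female p53 Y217C (0.75, 1.3e-07), and male p53 R172H (0.29, 0.00966). In male p53 Y202C it did not pass (-0.01, 0.907).

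*Plk2*, a polo-like kinase that acts at centrosomes and is induced by p53 and by serum, had the widest range of the 10 as a ratio of line means. Male libraries read 281, 236, and 241 CPM in p53 KO, 336, 332, and 359 CPM in p53 R172H, 103, 104, and 114 CPM in p53 Y202C, and 65.3, 76.1, and 65.7 CPM in p53 Y217C. The 4 male lines did not overlap. Log2 fold changes were 0.44 ± 0.08 (adjusted p = 7.93e-05), -1.24 ± 0.08 (7.41e-13), and -1.87 ± 0.08 (4.5e-16) in that order of mutants. Female libraries read 268, 258, and 256 CPM in p53 KO, 262, 232, and 224 CPM in p53 R172H, 165, 154, and 157 CPM in p53 Y202C, and 244, 300, and 269 CPM in p53 Y217C. Only p53 Y202C stood apart, at -0.72 ± 0.08 (adjusted p = 1.88e-08). Female p53 R172H was at -0.13 ± 0.08 (adjusted p = 0.147) and passed without its replicate 1 (-0.20, 0.0399), and female p53 Y217C was at 0.05 ± 0.08 (0.568).

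Immediate-early genes, which serum and growth factors induce within minutes, were counted because *Btg2* and *Plk2* can respond with them. Of 16 such genes, 12 were higher and 2 lower in male p53 Y202C, where *Plk2* fell and *Btg2* did not pass (0.11 ± 0.13, adjusted p = 0.461), beside 37.6% of all genes higher and 35.4% lower. *Atf3* led the rises there, at a log2 fold change of 3.44 (adjusted p = 9.37e-17), while *Fos* was lower (-0.71, 0.000163). In female p53 R172H, where *Btg2* rose most, 7 were higher and 5 lower (34.4% and 35.3% of all genes), and *Fos* rose by 1.92 (3.93e-11). In male p53 Y217C, the line with least *Plk2*, 7 were higher and 2 lower (34.9% and 35.6%). For male p53 R172H 6 rose and 6 fell (20.2% and 20.5%). In each of the remaining female lines 5 rose and 9 fell, with 34.3% of all genes higher and 34.3% lower under p53 Y202C, against 28% and 28.7% under p53 Y217C.

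*Trp53inp1* encodes a stress protein that takes part in autophagy and promotes the phosphorylation of p53. It had the lowest level per length of the 10 and was higher in every mutant line. Libraries of p53 KO read 2.89, 3.57, and 3.91 CPM in males and 3.02, 3.73, and 3.93 CPM in females. Male libraries read 4.29, 6.94, and 5.197 CPM in p53 R172H, 9.64, 9.93, and 10.4 CPM in p53 Y202C, and 16.5, 12.1, and 14.1 CPM in p53 Y217C. Female libraries read 15.0, 13.5, and 12.8 CPM in p53 R172H, 7.32, 5.86, and 7.58 CPM in p53 Y202C, and 7.46, 6.10, and 6.40 CPM in p53 Y217C. Every one of the 18 mutant libraries lay above all 6 p53 KO libraries. The log2 fold change was smallest in male p53 R172H (0.65 ± 0.16, adjusted p = 0.00183) and largest in male p53 Y217C (2.03 ± 0.16, 3.11e-11) and female p53 R172H (1.95 ± 0.16, 8.33e-11). It was 1.52 ± 0.15 in male p53 Y202C (adjusted p = 4.32e-09) and, in females, 0.96 ± 0.16 for p53 Y202C (1.03e-05) and 0.90 ± 0.16 for p53 Y217C (3.4e-05). The 6 calls held in every alternative tried. Over the 8 line means the genes most like it were *Serpina3n* (r = 0.990), *Peli3* (r = 0.989), and *Slc44a1* (r = 0.973).

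*Phlda3*, a small protein with a pleckstrin homology domain that competes with Akt for the membrane, was lower in male p53 Y202C (-0.42 ± 0.07, adjusted p = 7.14e-06), male p53 Y217C (-0.49 ± 0.07, 1.04e-06), and female p53 Y217C (-0.27 ± 0.07, 0.00174). In female p53 Y202C it was higher (0.45 ± 0.07, adjusted p = 3.14e-06), with libraries at 60.0, 74.8, and 61.3 CPM beside 48.5, 47.2, and 47.7 CPM in p53 KO. Its p53 R172H lines were both at a log2 fold change of 0.01 and overlapped their p53 KO. *Ccng1* and *Phlda3* were thus both low in male and high in female p53 Y202C.

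*Zmat3*, a zinc finger protein that binds RNA, varied least as a ratio of line means. Its line means ran from 39.5 CPM in female p53 R172H to 56.1 CPM in male p53 Y202C, and no neighbours in that order differed. It was higher in male p53 Y202C (0.35 ± 0.08, adjusted p = 0.000186), male p53 Y217C (0.28 ± 0.08, 0.0018), and female p53 Y217C (0.21 ± 0.08, 0.0188). In male p53 R172H the value was 0.17 ± 0.08 (adjusted p = 0.0734), which passed with limma voomWithQualityWeights (0.16, 0.0215). The female p53 Y217C call was lost without replicate 2 (0.21, adjusted p = 0.0514) or 3 (0.19, 0.0652) of female p53 KO and without replicate 2 (0.19, 0.0685) or 3 (0.18, 0.0734) of female p53 Y217C. In female p53 R172H the value of -0.17 ± 0.08 passed by little (adjusted p = 0.0486), and it did not pass without any single library of the 6 involved, at -0.19 to -0.14.

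The protein *Mdm2* that holds p53 down is encoded by a target as well, and *Mdm2* moved little. It was higher in male p53 Y202C (0.38 ± 0.06, adjusted p = 5.17e-06), at 81.7, 86.9, and 91.4 CPM beside 67.3, 67.9, and 63.9 CPM in p53 KO. It was lower in female p53 R172H (-0.31 ± 0.06, adjusted p = 0.000109) and female p53 Y202C (-0.22 ± 0.06, 0.00312).

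Of 35 other p53 targets listed for feedback, apoptosis, DNA repair, and metabolism, 33 were counted. Male p53 R172H had 13 of the 33 higher and 2 lower, beside 20.2% and 20.5% of all genes, and male p53 Y202C 16 and 11, beside 37.6% and 35.4%. Male p53 Y217C had 10 higher and 13 lower, beside 34.9% and 35.6%. Of the female lines, p53 R172H had 14 and 13, beside 34.4% and 35.3%, p53 Y202C 7 and 18, beside 34.3% and 34.3%, and p53 Y217C 15 and 7, beside 28% and 28.7%. In several lines these shares lay near those of all genes. Among the 11 that act in apoptosis, 6 were higher and 0 lower in male p53 R172H in edgeR (8 and 0 at an unadjusted p of 0.05, 6 and 0 with DESeq2, 8 and 1 with limma), 7 and 3 in male p53 Y202C, and 3 and 5 in male p53 Y217C. The female p53 R172H line had 4 higher and 6 lower, the p53 Y202C line 1 and 8, and the p53 Y217C line 4 and 4. *Pmaip1*, which encodes the BH3-only protein Noxa, fell by a log2 fold change of 3.88 in female p53 Y202C (adjusted p = 7.64e-18) and by 3.38 in female p53 R172H (1.54e-17). It was also lower in female (-1.05, 1.36e-08) and male p53 Y217C (-1.35, 2.67e-10). In male p53 R172H (0.90, 4.36e-07) and male p53 Y202C (1.08, 3.06e-09) *Pmaip1* was higher. Its p53 KO level was 13.7 CPM in males and 47.0 CPM in females. *Fas*, the death receptor, was higher in all 6 mutant lines, by 2.54 in female p53 R172H (adjusted p = 2.46e-14) and 1.57 in female p53 Y202C (3.01e-10). *Tnfrsf10b*, another death receptor, fell by 2.83 in male p53 Y217C (2.25e-20).

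The question of sex, to which the design of the study was directed, was put to each gene by testing whether the effect of a mutation differed between the male and the female culture. For p53 Y202C the effects differed for 9 of the 10 genes, beside 68.0% of all genes, for p53 R172H for 7, beside 58.0%, and for p53 Y217C for 6, beside 54.8%. The difference between the male and the female log2 fold change was largest for *Plk2* under p53 Y217C (-1.93 ± 0.11, adjusted p = 2.58e-13), which fell in males and not in females. *Sesn1* under p53 Y202C (-1.59 ± 0.12, adjusted p = 3.38e-11), *Ccng1* under p53 Y202C (-1.32 ± 0.11, 1.77e-10), and *Phlda3* under p53 Y202C (-0.87 ± 0.10, 2.46e-08) fell in males and rose in females. *Cdkn1a* fell in males and rose in females under p53 Y217C (-1.55 ± 0.11, adjusted p = 1.64e-11). *Sesn2* under p53 Y202C rose in the male line alone (1.46 ± 0.10, adjusted p = 9.02e-12). *Trp53inp1* rose in both cultures under each mutation, less in males under p53 R172H (-1.30 ± 0.22, adjusted p = 2.03e-05) and more in males under p53 Y217C (1.13 ± 0.22, 0.000112). *Trp53* itself differed in the same contrasts, by 1.91 ± 0.08 under p53 Y202C (adjusted p = 2.21e-16) and by -1.67 ± 0.08 under p53 Y217C (4.7e-15), and by 0.17 ± 0.08 under p53 R172H (0.0586). Whether its level accounts for any of these differences was not tested.

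**Figure D5:**
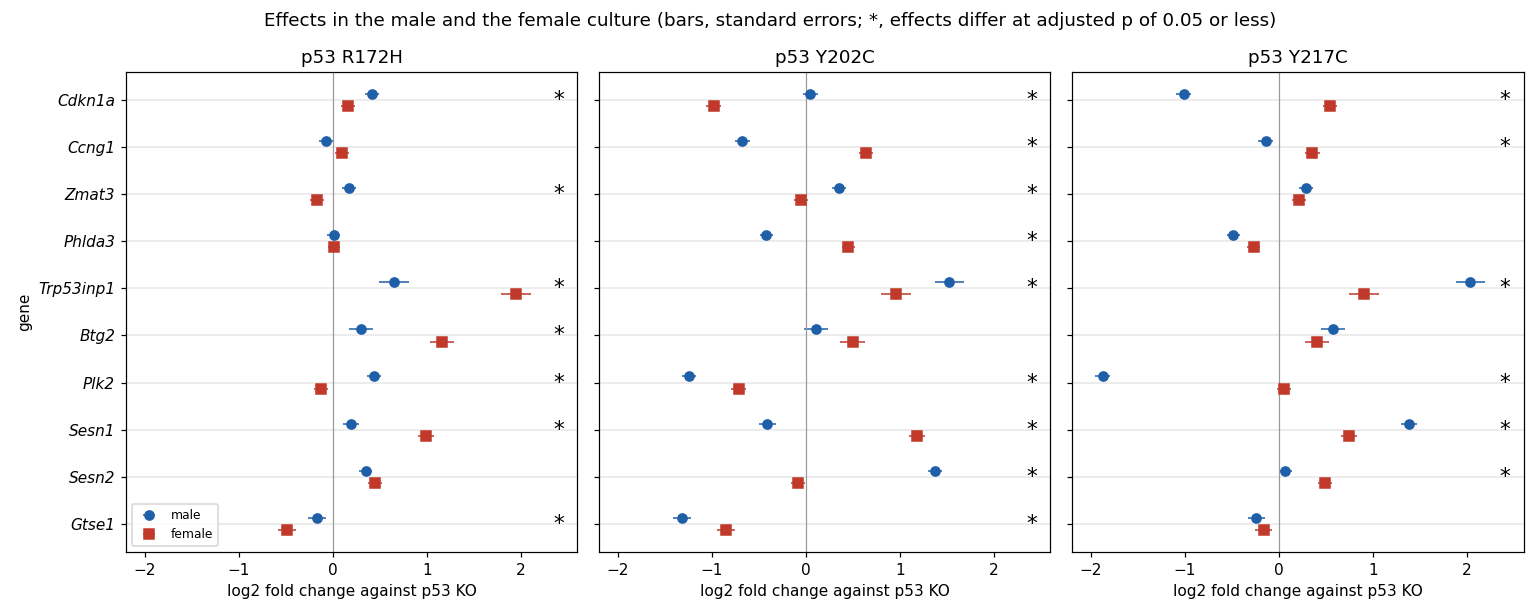
Log2 fold change against p53 KO (horizontal axis, bars are standard errors) of the 10 genes in males (blue circles) and females (red squares) for each mutation, with an asterisk where the 2 effects differ at an adjusted p of 0.05 or less. Asterisks mark 7 genes under p53 R172H, 9 under p53 Y202C, and 6 under p53 Y217C.

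Between the cultures themselves the genes were close in p53 KO. There 2 of the 10 were higher in males, beside 31.1% of all genes that differed in either direction. None was lower in edgeR, also at an unadjusted p of 0.05, where 5 were higher, or with DESeq2. *Cdkn1a* was higher by a log2 fold change of 0.28 ± 0.08 (adjusted p = 0.00647). *Sesn1* was higher by 0.26 ± 0.09 (0.023), a call lost without replicate 1 of female p53 KO (0.19, 0.151) or replicate 2 (0.23, 0.0874) or 3 (0.22, 0.103) of male p53 KO. In the mutant lines 7 of 10 differed between the sexes for p53 R172H (62.0% of all genes), 9 for p53 Y202C (75.3%), and 7 for p53 Y217C (68.0%).

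Levels between the genes were compared per kilobase of exon. By the median over the 8 lines *Plk2* was highest (54.8 CPM per kb), then *Phlda3* (30.8), *Sesn2* (21.2), *Ccng1* (14.8), *Gtse1* (13.6), *Btg2* (6.50), *Sesn1* (5.71), *Cdkn1a* (5.50), *Zmat3* (4.10), and *Trp53inp1* (1.05). The ratio of the highest to the lowest line mean was 4.96 for *Plk2*, 4.12 for *Trp53inp1*, 3.45 for *Sesn1*, 3.20 for *Cdkn1a*, 3.06 for *Sesn2*, 2.597 for *Gtse1*, 2.24 for *Btg2*, 2.21 for *Ccng1*, 1.73 for *Phlda3*, and 1.42 for *Zmat3*. The 10 genes did not rise and fall as a group. Over the 8 line means of log2 CPM, the 45 pairs among them had a median r of -0.124, from -0.773 to 0.833, and 21 pairs were above 0. These means share cultures and normalization, and the values describe 8 lines only.

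The genes most like the others over the 8 line means were *Parp6* for *Cdkn1a* (r = 0.968), *Dusp19* for *Ccng1* (r = 0.978), *Zfp846* for *Zmat3* (r = 0.974), *Mrm1* for *Phlda3* (r = 0.976), *Socs3* for *Btg2* (r = 0.966), 4931428F04Rik for *Plk2* (r = 0.991), and *Fzd8* for *Sesn1* (r = 0.980). *Fas*, itself a p53 target, was the third most like *Btg2* (r = 0.955). With 14427 genes and 8 means, high values of r arise readily, and each is given as a description.

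The 10 genes lie on GRCm38 as follows, with exons as in GENCODE M21. *Cdkn1a* is at chr17:29090976-29100727, *Ccng1* at chr11:40748552-40755311, *Zmat3* at chr3:32334792-32366014, *Phlda3* at chr1:135766119-135769136, and *Trp53inp1* at chr4:11156431-11174379. *Btg2* is at chr1:134075170-134079120, *Plk2* at chr13:110395046-110400844, *Sesn1* at chr10:41809935-41908424, *Sesn2* at chr4:132492032-132510501, and *Gtse1* at chr15:85859745-85876573. All 10 are protein-coding. An exon of *Cdkn1a* overlaps an unnamed transcript of the opposite strand, and the strand of counting is not stated, so reads of the pair cannot be told apart.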

How the data were processed

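RNA-seq of poly(A) RNA was measured in 24 libraries of 8 astrocyte lines, grouped by the sample labels. The authors aligned reads with STAR 2.5.1a to the mouse primary assembly of Ensembl, assigned unique reads to genes with featureCounts, and deposited raw counts for 14427 genes. The strand setting is not given in the sources used here. Symbols and positions came from GENCODE M21 (14350 matched, 77 not), promoter windows from RefSeq.

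Counts were TMM-normalized and fitted in edgeR 4.0.16 (R 4.3.3) with 1 mean per line over all libraries, and a filter of over 1 CPM in 2 or more libraries removed no gene. Mutant and p53 KO were compared by the quasi-likelihood test with Benjamini-Hochberg adjustment over all genes at 0.05. An SE is the log2 fold change divided by the root of F. The study used limma with voomWithQualityWeights, which is tried here as an alternative with limma 3.58.1, beside DESeq2 1.42.0 and the other settings of the closing section. On simulated counts for male p53 R172H against p53 KO over 13898 genes, 91 of 100 genes changed by a log2 fold change of 1 and 69 of 100 changed by 0.5 were recovered, with 8 false calls. Replicates of a line differed by a mean chi-square of 6.84 or more per gene and were counted as separate libraries.

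Other genes were named by rule: the 2 largest rises and falls among other p53 targets and 1 of each per further list, past the threshold and with 10 counts or more in each library of the line where the gene is higher, and the 3 genes most correlated with each of the 10. *Mki67*, *Gadd45a*, and the markers were named for their level. *Cdkn2a* was not named by this rule. The 10 genes and the lists were chosen with earlier results of these data known. Correlations used log2 CPM with a prior count of 2.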

Additional observations from a re-analysis of the deposited data

Results flagged for a closer look

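For 22 of the 30 combinations of gene and mutation, the effect of the mutation differed between the male and the female culture by the interaction test in edgeR at an adjusted p of 0.05. Such differences were common in the whole table. Under p53 R172H the test called 58.0% of all genes, against 68.0% under p53 Y202C and 54.8% under p53 Y217C. Values are the male minus the female log2 fold change against p53 KO. With p53 R172H it was 0.25 for *Cdkn1a* (adjusted p = 0.0477), 0.34 for *Zmat3*, -1.30 for *Trp53inp1*, -0.86 for *Btg2*, 0.56 for *Plk2*, -0.80 for *Sesn1*, and 0.32 for *Gtse1* (0.0422). With p53 Y202C it was 1.03 for *Cdkn1a*, -1.32 for *Ccng1*, 0.41 for *Zmat3*, -0.87 for *Phlda3*, 0.57 for *Trp53inp1* (0.0265), -0.53 for *Plk2*, -1.59 for *Sesn1*, 1.46 for *Sesn2*, and -0.46 for *Gtse1*. With p53 Y217C it was -1.55 for *Cdkn1a*, -0.50 for *Ccng1*, 1.13 for *Trp53inp1*, -1.93 for *Plk2*, 0.63 for *Sesn1*, and -0.42 for *Sesn2*.

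The weakest of these depended on the method and on single libraries. With DESeq2 the *Cdkn1a* and *Gtse1* differences with p53 R172H did not pass (adjusted p = 0.0686 and 0.0581). With limma voom the *Trp53inp1* difference with p53 Y202C did not pass (adjusted p = 0.0685). None of these passed with total counts in place of TMM or with a minimum of 5 CPM. In the other direction, with limma voom *Btg2* with p53 Y202C (adjusted p = 0.0174) and *Phlda3* with p53 Y217C (0.019) passed. The *Cdkn1a* difference with p53 R172H was lost without any of 8 of the 12 libraries (0.19 to 0.27, adjusted p = 0.0559 to 0.14), namely each replicate of female p53 KO, replicates 2 and 3 of female and of male p53 R172H, and replicate 1 of male p53 KO. The *Gtse1* difference with p53 R172H was lost without any of 7 (0.24 to 0.32, 0.0607 to 0.143), replicates 1 and 2 of female p53 KO, 1 of female p53 R172H, 2 and 3 of male p53 KO, and 1 and 3 of male p53 R172H. The *Trp53inp1* difference with p53 Y202C was lost without any of 4 (0.46 to 0.53, 0.0536 to 0.0772), replicates 2 and 3 of female p53 KO, 2 of female p53 Y202C, and 1 of male p53 KO. The *Zmat3* difference with p53 Y202C was 0.41 in edgeR and 0.265 with limma voom. With 1 culture of each sex, these differences cannot be told apart from differences between cultures or lines.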

How the results depend on the processing

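Most values held under the alternatives tried. Of the 60 log2 fold changes against p53 KO, 60 kept their direction and side of the threshold without the filter, 59 with the replicate number as a block, 58 with DESeq2, 58 with its size factors in edgeR, 58 when only the lines compared were fitted, 56 with total counts in place of TMM, 56 with a minimum of 5 CPM, and 54 with limma voomWithQualityWeights. Numbers did not pair the libraries (correlation of same-numbered deviations -0.0116 over 84 pairs, 0.00571 over 168 others), and with the replicate block only *Zmat3* in female p53 R172H lost its call (-0.17, adjusted p = 0.0506).

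Requiring an absolute log2 fold change above 0.5 as well left 1 gene in male p53 R172H, 5 in male p53 Y202C, 5 in male p53 Y217C, 3 in female p53 R172H, 3 in female p53 Y217C, 4 in the p53 R172H interaction, and 0 between male and female p53 KO. Male and female p53 KO differed in 5 genes with total counts, 6 with voom, 5 with only the lines compared, 1 at an adjusted p of 0.01, and 1 to 4 with a library left out. The cut of 0.5 also removed *Btg2* (0.4965) and *Phlda3* (0.45) in female p53 Y202C. In the p53 Y202C interaction it removed *Zmat3* (0.41) and *Gtse1* (-0.46), and in the p53 Y217C interaction *Ccng1* (-0.497) and *Sesn2* (-0.42). The share of all genes past this cut was not counted, and counts not named here are not given.

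Direction turned only where no call was made. *Cdkn1a* in male p53 Y202C was -0.00231 with a minimum of 5 CPM and -0.0151 to 0.109 leaving out libraries. *Zmat3* in female p53 Y202C was 0.0171 with total counts, 0.0203 with voom, and -0.106 to 0.0478 leaving out libraries. *Phlda3* in male p53 R172H was -0.0151 with total counts, -0.0104 with voom, -0.00123 with a minimum of 5 CPM, and -0.0185 to 0.0413 leaving out libraries, in female p53 R172H -0.0104 to 0.0402, and in their interaction -0.0314 to 0.0285. *Plk2* in female p53 Y217C was -0.0245 to 0.123 and *Sesn2* in male p53 Y217C -0.0279 to 0.127 leaving out libraries. The cause was not tested. With 3 libraries per line, the precision is that of the spread within a line.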

Other observations

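The genes that follow had some of the largest rises and falls among the other p53 targets, and were chosen for that size. *Perp*, a membrane protein of desmosomes and apoptosis, rose by a log2 fold change of 1.99 in male p53 R172H (adjusted p = 4.24e-11, edgeR). It rose by 2.19 in male p53 Y217C (6.21e-13) and fell by 1.77 in female p53 Y217C (6.27e-11). *Perp* was also lower in female p53 Y202C (-1.85, 1.61e-11). It did not pass in male p53 Y202C (0.20, 0.218) or female p53 R172H (0.26, 0.054). *Sfn*, which encodes the 14-3-3 sigma protein of the G2 checkpoint, fell by 2.17 in female p53 Y217C (1.17e-14), from 17.3 to 3.85 CPM. *Cd82*, a tetraspanin, rose by 1.70 in female p53 R172H (3.95e-13). It was also higher in female p53 Y217C (0.93, 4.18e-08) and male p53 Y202C (0.49, 0.00013), and lower in male p53 Y217C (-1.38, 2.88e-11). In male p53 R172H and female p53 Y202C it did not pass (0.17, 0.184, and -0.01, 0.964). *Ddit4*, an inhibitor of mTORC1, rose by 1.65 in male p53 Y217C (3.54e-12), from 44.03 to 138 CPM. It rose less in the other mutant lines except female p53 Y202C, where it was lower (-0.67, 1.39e-05).

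*Btg1*, the paralog of *Btg2*, rose in male p53 Y202C by a log2 fold change of 1.31 (adjusted p = 1.16e-13, edgeR) and in male p53 Y217C by 1.42 (2.62e-14), from 67.6 CPM in p53 KO to 168 and 181 CPM. *Btg2* in the same lines was at 0.11 ± 0.13 (adjusted p = 0.461) and 0.57 ± 0.13 (0.000298). *Btg1* rose less in female p53 R172H (0.77, 2.05e-09), p53 Y202C (0.59, 2.43e-07), and p53 Y217C (0.34, 0.000397). It did not pass in male p53 R172H (0.13, 0.157).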
